A study of Taeniopygia guttata with 5 samples.

Results

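The genes described here encode the proteins of the cytosolic ribosome and the factors that start and drive translation on it. They were found by symbol in the deposited tables of an RNA-Seq study of the zebra finch brain: every transcript whose gene name begins with RPL or RPS and a digit, or with RPLP, RPSA, EIF or EEF was taken, and the RPS6K kinases were left out. This gave 53 of the 4675 listed transcripts, each the only listed transcript of its gene. Of these, 37 carry symbols of ribosomal proteins, 27 of the large and 10 of the small subunit, with the paralogs *RPL7L1* and *RPL26L1* among them. The other 16 are counted as translation factors, also by symbol: 11 initiation factors, 4 elongation factors and *EEF1E1*. The last is named as an elongation factor but is a scaffold protein of the aminoacyl-tRNA synthetase complex. In the RefSeq gene table of the species, 145 symbols meet the same rule and 51 of the 53 symbols were found there, so most genes of the translation machinery are outside the tables and were not analysed here.

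A ribosome is built of ribosomal RNA and a fixed set of proteins, most of them present once in each particle, so cells normally make the ribosomal proteins in step with each other. Initiation factors bring the small subunit, the initiator tRNA and the capped mRNA together, and elongation factors then deliver aminoacyl-tRNAs and move the ribosome along the message. In neurons, translation supplies growing processes and synapses, and the mRNAs of ribosomal proteins are among the shortest and most abundant of a cell.

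The study compared HVC, a forebrain nucleus that controls learned song, with the whole brain in male zebra finches at 45 d, when juveniles practise song, and at 100 d, when birds are adult. There were 2 libraries of HVC at 45 d and 1 of every other combination, namely adult HVC, juvenile whole brain and adult whole brain. Each HVC library held RNA pooled from 4 birds and each whole brain library RNA from 2, no bird was treated, and whole brain RNA includes that of HVC. Juveniles lived with their parents until collection, whereas adults had been separated from them and kept in group cages. Age and housing can therefore not be told apart. The 45 d HVC libraries carry the headers R92L1 and R92L2. Which of them is the first replicate, and whether they came from separate birds, is not given in the sources used here. The spread behind the p-values of the main edgeR fits is that of this pair, so it may be technical.

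The values are raw read counts per Ensembl transcript on the taeGut1 genome, and each of 4 deposited tables keeps 1800 transcripts, those of lowest p in its comparison, out of 10859 to 11507 tested. A member therefore has counts for a library only where a table with that library lists it. All 53 members are listed in at least 1 table (21 in 1, 26 in 2 and 6 in 3), and counts in all 5 libraries exist for 22 members, against 1205 of all listed transcripts. Members listed for a comparison were picked because they differed in it, so the counts and medians below describe the members beside all fitted transcripts, which were picked in the same way, and are no support for a change of the whole group.

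The listed counts sum to 495316 to 1014565 reads per library, which is not the sequencing depth. Library sizes were therefore recovered from the whole tables: relative to HVC at 100 d, R92L1 was 0.905 and R92L2 1.09, and whole brain was 1.81 at 45 d and 1.51 at 100 d, and scaled reads are reads divided by these sizes. The headers give HVC columns a different run label from whole brain columns, so tissue and run cannot be told apart. In bulk tissue, fewer cells of a type and less RNA per cell cannot be told apart either. The HVC marker genes *ALDH1A2*, *CADPS2*, *CRHBP* and *NTS* summed to between 6571 and 7852 scaled reads in the 3 HVC libraries and to 1474 and 1375 in whole brain, and all 4 were called higher in HVC at both ages. Cerebellum markers (4 of 4 listed, 137 to 222 scaled reads in HVC, 1543 and 1318 in whole brain) were called lower in HVC at both ages. *MBP*, which encodes a protein of myelin, had 890 and 1337 reads in the 45 d HVC pair, 1014 in adult HVC, and 4116 (45 d) and 4548 (100 d) in the whole brain libraries, and was called lower in HVC at both ages. *VIM*, a marker of the ventricular zone, was at 515 and 680 in the 45 d HVC pair, at 348 in adult HVC and at 182 and 176 in whole brain. The part of these cell types in the results below was not tested.

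Ribosomal protein genes and translation factor genes differed in their pattern over the libraries. For each member with counts in all 5 libraries, scaled reads were set on a log2 scale against the gene's own mean. The median of the 15 ribosomal proteins was 0.93 in R92L1, 0.36 in R92L2 and 0.21 in HVC at 100 d, and in the whole brain libraries it was -0.54 (45 d) and -0.98 (100 d). That of the 7 translation factors was -0.50, -0.01 and -0.43 in the same HVC libraries and 0.44 and 0.47 in whole brain. Over all 1205 transcripts the medians were -0.14, -0.15, -0.23, 0.35 and 0.39, so the translation factors lay near the listed transcripts in whole brain, and the ribosomal proteins on the other side of 0 in every library. Another scaling would move all genes of a library alike, so the distance between the classes does not depend on it, whereas the side of 0 does.

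**Figure D1:**
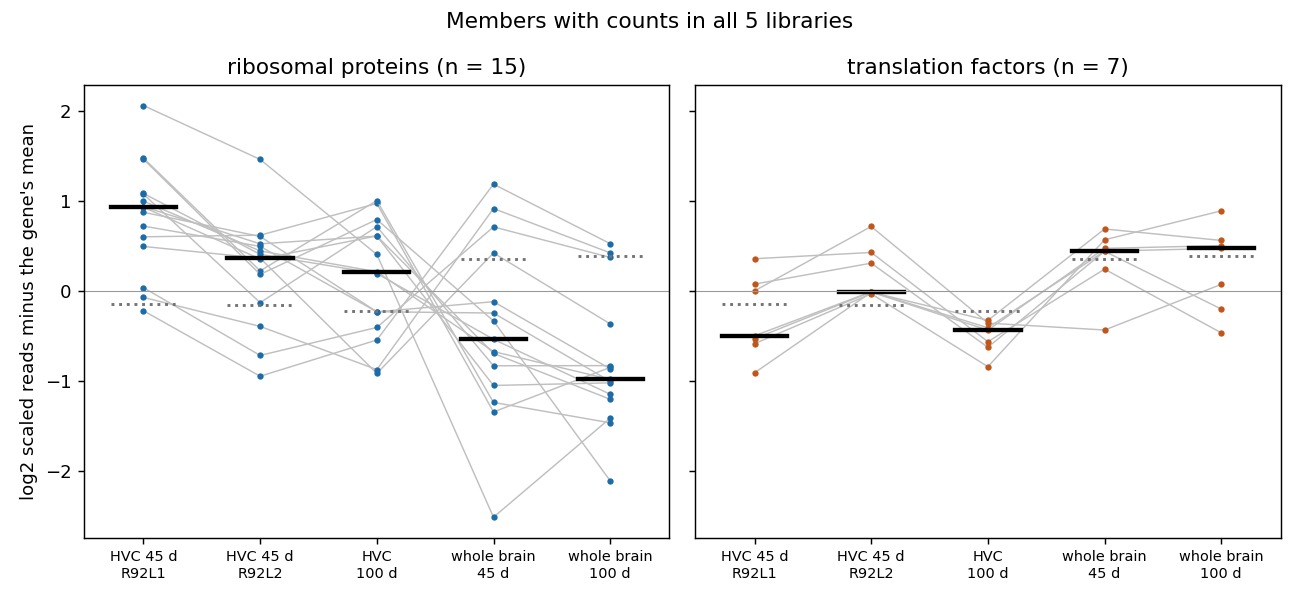
Log2 scaled reads of each member minus the gene's own mean over the 5 libraries (y axis), by library (x axis), for the 15 ribosomal proteins and 7 translation factors with counts in every library; grey lines join a gene, black bars are medians of the class and dotted bars the median of all 1205 transcripts. The ribosomal protein median falls from 0.93 in R92L1 to -0.98 in whole brain at 100 d, while the translation factor median is highest in whole brain (0.44 and 0.47).

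In scaled reads, the HVC libraries lay all above both whole brain libraries for 10 of the 15 ribosomal proteins, where 30.2% of all 1205 transcripts did so, and all below for 3 (43.2% of all transcripts). These 10 were *RPL10A*, *RPL29*, *RPL35A*, *RPL4*, *RPL7A*, *RPLP2*, *RPS10*, *RPS2*, *RPS3* and *RPSA*, and the 3 were *RPL23A*, *RPL32* and *RPS21*. Only *RPL27* and *RPL30* overlapped. *RPL10A* was separated narrowly, with 48.0 scaled reads in HVC at 100 d and 47.5 in whole brain at 45 d. In whole brain *RPL29* had only 4 and 5 reads and *RPS2* 4 and 8 (45 d and 100 d). These counts of separated genes were not repeated with other library sizes. Of the 7 translation factors none lay above, 4 lay below (*EEF1E1*, *EIF1AY*, *EIF3B* and *EIF3J*) and 3 overlapped (*EEF2*, *EIF3F* and *EIF3L*). Every member that lay above or below was listed for a tissue comparison, that is, picked for a difference between tissues. *RPL27*, *RPL30*, *EEF2* and *EIF3L* were listed for the ages only, and all overlapped. The separation thus follows the listing and is no support for a tissue difference of either class.

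The pair of 45 d HVC libraries, the only replicates of the study, differed from each other by class. Of the 26 ribosomal proteins with at least 20 reads in the pair, 22 were higher in R92L1, with a median log2 ratio of 0.41 (quartiles 0.11 to 0.67). All 10 translation factors were higher in R92L2, with a median of -0.47 (quartiles -0.54 to -0.23). Over all 2391 transcripts with as many reads the median was -0.01 (quartiles -0.33 to 0.30), and over the other 617 transcripts with a gene span under 5000 bases it was 0.04. The difference between the medians of both classes was 0.89 on the log2 scale, or 1.85-fold, and does not depend on how the libraries are scaled.

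The 4 ribosomal proteins on the other side were *RPS6*, *RPL17*, *RPL27A* and *RPL29*. The widest differences were in *RPLP2* (55 and 27 reads in R92L1 and R92L2, 2.43-fold), *RPL4* (206 and 104, 2.38-fold), *RPS10* (35 and 18, 2.31-fold) and *RPL26L1* (124 and 73, 2.04-fold), all higher in R92L1, and in *EIF3J* (76 and 171, 1.86-fold), higher in R92L2. An exact binomial test of the reads against the library sizes gave an unadjusted p under 0.05 for 13 of the 26 ribosomal proteins and 7 of the 10 translation factors, beside 34.0% of all 2391 transcripts. The 17 mitochondrial ribosomal proteins, which build the separate ribosome of that organelle, had a median of 0.10, with 10 higher in R92L1, and 2 of them differed beyond sampling noise. Other short lists also differed within the pair. Of 7 genes of ribosome biogenesis, 6 were higher in R92L1 (median 0.29). All 3 RPS6K kinases (-0.52), 3 of 4 HVC markers (-0.38) and all 3 cerebellum markers (-1.1) were higher in R92L2. A shift within the pair was thus not particular to the members. *RPS6*, the small subunit protein that S6 kinases phosphorylate, went against its class with 202 and 368 reads. Comparisons with 45 d HVC therefore depend on which library of the pair is used. For members with at least 20 reads that this moved by over 1.5 times, values with each library alone are given below in a comparison that uses the pair.

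**Figure D2:**
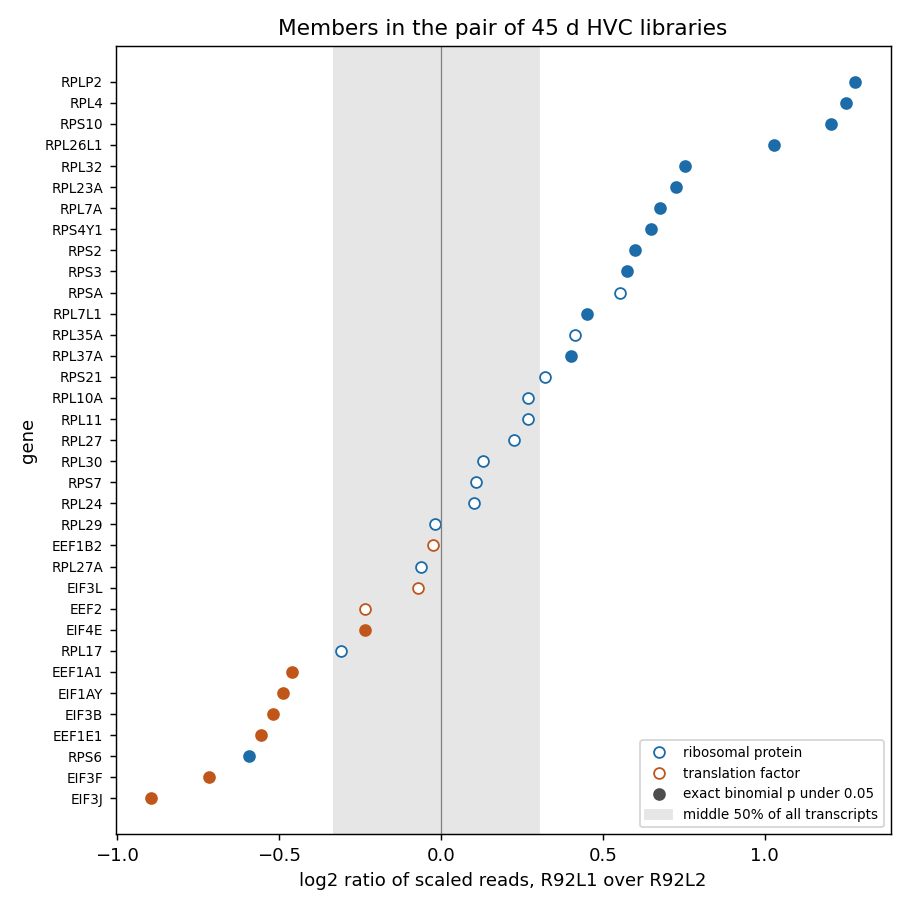
Log2 ratio of scaled reads, R92L1 over R92L2 (x axis), for 35 members with at least 20 reads in the pair of 45 d HVC libraries (y axis, ordered by ratio); blue is ribosomal protein, orange translation factor, filled points have an exact binomial p under 0.05, and the grey band spans the quartiles of all 2391 transcripts. The 10 translation factors lie below 0 and 21 of the 25 ribosomal proteins drawn lie above it.

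At 45 d, some ribosomal proteins were far higher in HVC than in whole brain and others lower. Of the 31 members with counts in these libraries, 29 passed the filter on low counts, and the quasi-likelihood test of edgeR at an adjusted p under 0.1 called 4 higher in HVC (14.0% of all 1928 fitted transcripts were called higher) and 4 lower (21.5% of all). The 4 called higher were the ribosomal proteins *RPS2*, *RPL4*, *RPL35A* and *RPS7*. The 4 called lower were the ribosomal proteins *RPL23A*, *RPS21* and *RPL32* and the initiation factor *EIF3J*. By side alone, 15 of 20 ribosomal proteins had a log2 fold change above 0, with a median of 1.30, and 4 of 9 translation factors did, with a median of -0.24, while the median of all fitted transcripts was -0.69. The members' share called higher was thus near that of all fitted transcripts, and their share called lower was below it. With either library of the pair taken alone, 16 of the 22 ribosomal proteins with counts were on the higher side and 5 on the lower side, with medians of 1.54 (R92L1) and 0.90 (R92L2).

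*RPS2*, a small subunit protein at the mRNA entry of the ribosome, had the widest difference. It had 58 and 46 reads in the 45 d HVC pair against 4 in whole brain at 45 d, and 20 against 8 at 100 d. The log2 fold change at 45 d was 4.52 (SE 0.73, edgeR adjusted p = 0.000383), with a read ratio of 23.6 (exact 95% interval 8.93 to 88.1). With R92L1 alone the log2 fold change was 4.57, and with R92L2 alone 3.98. Every HVC library lay above both whole brain libraries, but the 4 reads leave a wide interval.

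*RPL4*, a large subunit protein that lines the exit tunnel, had 206 and 104 reads in the pair, 164 in adult HVC, and 62 (45 d) and 44 (100 d) in the whole brain libraries. The log2 fold change at 45 d was 2.23 (SE 0.45, edgeR adjusted p = 0.00373). In scaled reads these are 228, 95.2, 164, 34.3 and 29.2, so the HVC libraries did not overlap the whole brain libraries, although R92L1 was more than double R92L2. With R92L1 alone the log2 fold change was 2.71, and with R92L2 alone 1.46.

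*RPL35A*, a large subunit protein, had 41 and 37 reads in the pair and 36 at 100 d, against 20 and 17 in whole brain. The difference at 45 d was 1.83 on the log2 scale (SE 0.59, edgeR adjusted p = 0.0872). *RPS7*, of the small subunit, had 219 and 245 reads against 204 in whole brain at 45 d, a library of larger size, with a log2 fold change of 1.05 (SE 0.33, edgeR adjusted p = 0.0825). It had 136 reads in HVC at 100 d and no count for whole brain at that age. For both genes the pair differed by less than sampling noise.

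*RPL23A*, a large subunit protein beside the exit of the tunnel, went the other way, with 84, 61 and 74 HVC reads (R92L1, R92L2 and 100 d) and 447 and 235 whole brain reads (45 d and 100 d). Its value at 45 d was -1.74 on the log2 scale (SE 0.34, edgeR adjusted p = 0.00271), or -1.41 with R92L1 alone and -2.13 with R92L2 alone. The small subunit protein *RPS21* had 54, 52 and 34 HVC reads against 215 and 127, with a log2 fold change of -1.15 (SE 0.37, edgeR adjusted p = 0.0858). *RPL32*, of the large subunit, had 235, 168 and 191 HVC reads against 751 and 494, with a log2 fold change of -1.01 (SE 0.32, edgeR adjusted p = 0.0775), or -0.68 with R92L1 alone and -1.43 with R92L2 alone. All 3 were higher in R92L1 than in R92L2, as most ribosomal proteins were, although the difference of *RPS21* was within sampling noise. *RPL23A* and *RPL32* thus share the pattern of their class within the pair while lying on the opposite side between tissues.

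*EIF3J*, a loosely bound subunit of an initiation factor complex, had 76 and 171 reads in the pair and 462 in whole brain at 45 d. At 100 d it had 126 in HVC against 352 in whole brain. The 45 d difference was -1.08 on the log2 scale (SE 0.34, edgeR adjusted p = 0.0829), -1.60 with R92L1 alone and -0.70 with R92L2 alone. Both HVC libraries were below whole brain, and they were farther from each other (0.90 on the log2 scale) than R92L2 was from whole brain.

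These calls depend on the processing. The 4 higher and 4 lower became 2 and 0 with TMM scaling, 13 and 1 with relative log expression and 1 and 0 with the listed sums, which moved the median of all transcripts up by 0.30, 0.55 and 0.34 on the log2 scale. No called member changed side. Of 11 alternative settings, *RPS2* kept its call under 8, *RPL4* and *RPL23A* under 7, *RPL35A* under 5, *RPS21* under 4, *EIF3J* under 3 and *RPL32* under 2, and *RPS7* under 2 of the 8 that could be fitted for it. An additive model of tissue and age gives a single tissue effect for both ages. Whether members were called in it depended on which library of the pair was left out. It put *RPL4* at 1.975 on the log2 scale without R92L1 and at 2.615 without R92L2. *EIF3J* was at -0.796 without R92L1 and at -1.231 without R92L2.

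The other ribosomal proteins fitted at 45 d did not pass the threshold. Those with 20 or more reads in whole brain and values above 0 included *RPS3*, of the small subunit near the mRNA entry (78, 63 and 69 HVC reads against 50 and 29, log2 fold change 1.37 at 45 d), *RPL10A* (94, 94 and 48 against 86 and 42, 1.0), *RPLP2*, a protein of the stalk that recruits elongation factors (55, 27 and 38 against 31 and 7, 1.30, or 1.80 with R92L1 alone and 0.52 with R92L2 alone), *RPL7A* (44, 33 and 26 against 28 and 15, 1.34) and *RPL27* (286, 295 and 163 against 319 and 158, 0.73). With R92L1 alone *RPL7A* was at 1.62, and with R92L2 alone at 0.94. *RPSA*, a small subunit protein also known as a laminin receptor, had 44, 36 and 28 reads against 27 and 18 (1.44). *RPS10* had 35, 18 and 30 reads against 18 and 15 (1.45, or 1.91 with R92L1 alone and 0.70 with R92L2 alone). *RPL29* had 9, 11 and 13 against 4 and 5 (2.13). *RPL30*, with 20, 22 and 8 reads against 38 and 18, was at 0.01. Of the others, *RPL27A* (27 and 34 reads in the pair, 19 in whole brain, 1.53) and *RPL17* (22 and 33 against 20, 1.30) were above 0. *RPL24* (89 and 100 against 310, -0.85) and *RPL26L1* (124 and 73 against 316, -0.78, or -0.35 with R92L1 alone and -1.38 with R92L2 alone) were below. In all, 18 of the 20 fitted ribosomal proteins had an unadjusted edgeR p under 0.05, beside 1472 of all 1928 fitted transcripts.

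*RPLP1*, another stalk protein, had too few reads to pass the filter of the main fit. It had 12 reads in R92L1 and 1 in R92L2 against 1 in juvenile whole brain. The ratio was 11.8 (exact 95% interval 1.77 to 501), which rests on R92L1. Such intervals cover counting error only.

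Among translation factors at 45 d, *EEF1B2*, a subunit of the nucleotide exchange factor that recharges EEF1A, had 820 and 1005 reads in the pair and 903 in whole brain, with a log2 fold change of 0.87 (SE 0.30, edgeR adjusted p = 0.123). *EIF4E*, which binds the mRNA cap (466 and 662 against 572), was at 0.83 and the initiation factor 3 subunit *EIF3F* (180 and 357 reads against 266) at 0.84. *EIF3F* was at 0.43 with R92L1 alone and at 1.15 with R92L2 alone. *EIF3B* (111 and 192 against 446) was at -0.72, *EIF1AY* (931 and 1576 against 3571) at -0.67 and *EEF1E1* (93 and 165 against 415) at -0.85. *EEF2*, which moves the ribosome along the mRNA (177 and 251 against 456), was at -0.24 and *EIF3L* (45 and 57 against 83) at 0.15. None of these passed the threshold, so subunits of the same initiation factor 3 complex were measured on both sides of 0 and only *EIF3J* was called. With another scaling of the libraries the median of the factors moved to between 0.06 and 0.31 (TMM, relative log expression and listed sums), and *EEF2* changed side, so a direction for the factors as a class at 45 d is not given.

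**Figure D3:**
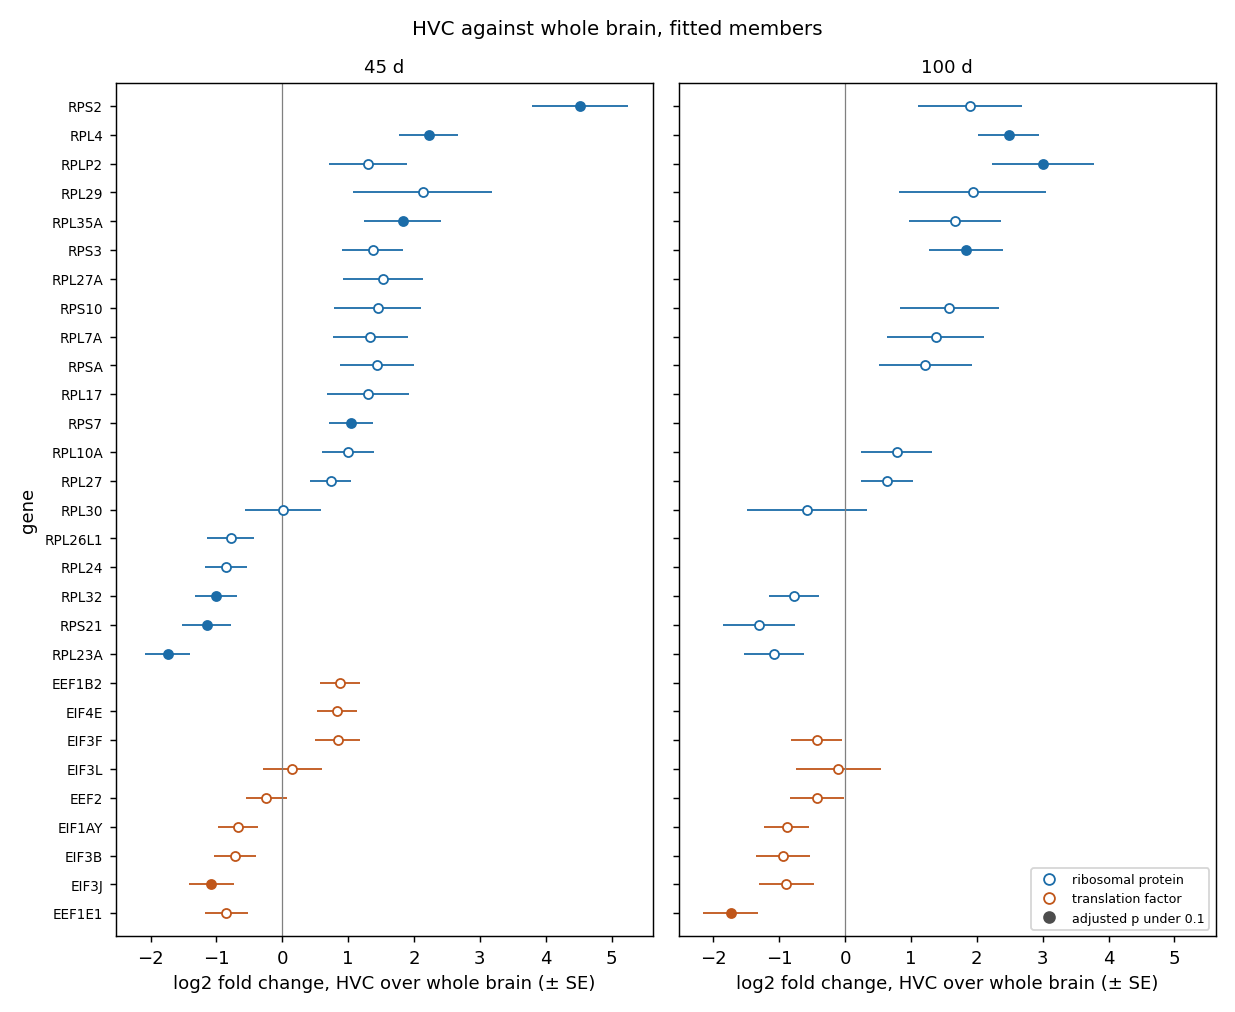
Log2 fold change of HVC over whole brain (x axis, bars ± SE) of each fitted member (y axis) at 45 d (29 members) and 100 d (22 members); blue is ribosomal protein, orange translation factor, filled points have an edgeR adjusted p under 0.1. At 45 d 15 of 20 ribosomal proteins and at 100 d 11 of 15 lie above 0, and at 100 d all 7 translation factors lie below 0 with the recovered library sizes, while up to 3 lie above it under another scaling.

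At 100 d, when 1 library stood for each tissue, 22 of the 31 members with counts were fitted, the spread being taken from the 45 d pair. The edgeR test called 3 higher in HVC (10.9% of all 1361 fitted transcripts were called higher) and 1 lower (14.0% of all). The 3 were the ribosomal proteins *RPL4*, *RPLP2* and *RPS3*, and the 1 was *EEF1E1*. Of the 15 fitted ribosomal proteins 11 were above 0, with a median log2 fold change of 1.38, and all 7 translation factors were below, with a median of -0.88, beside -0.42 for all fitted transcripts. The 4 ribosomal proteins below 0 were not called. An unadjusted edgeR p under 0.05 was reached by 3 of them, beside 881 of all 1361 fitted transcripts. With relative log expression or the listed sums as scaling, 3 members were called higher and 0 lower.

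*RPL4* was at 2.48 on the log2 scale (SE 0.47, edgeR adjusted p = 3.35e-05). In this fit the trend over transcripts alone set the spread. The SE and p of a gene therefore take no account of its own difference within the 45 d pair. That difference was 2.38-fold for *RPL4* and 2.43-fold for *RPLP2*. *RPLP2*, with 38 HVC reads against 7 at 100 d, was at 3.0 (SE 0.78, edgeR adjusted p = 0.00902), a read ratio of 8.18 (exact 95% interval 3.61 to 21.7). Its gene model spans 93483 bases and overlaps *LRDD* and *SLC25A22*, whose reads may be hard to separate from its own. *RPS3*, with 69 reads against 29, was at 1.84 (SE 0.57, edgeR adjusted p = 0.0512). *EEF1E1* had 86 HVC reads against 432 at 100 d and was at -1.74 (SE 0.42, edgeR adjusted p = 0.00411). Under the 11 alternative settings *RPL4* kept its call under 8, *RPS3* under 6, and *RPLP2* and *EEF1E1* under 5. At 100 d no member kept its call with DESeq2 or with TMM scaling. The additive model among these settings gives a single tissue effect for both ages, so the 45 d pair enters its values too. With R92L1 left out it put *RPL4* at 1.975 on the log2 scale, against 2.48 in the 100 d fit.

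Of the 7 members called at 45 d only, *RPS7* has no whole brain count at 100 d and the other 6 were measured on the same side at both ages. *RPS2* was at 1.89 (SE 0.79) and *RPL35A* at 1.66 (SE 0.70), while *RPL23A* was at -1.07, *RPS21* at -1.31, *RPL32* at -0.78 and *EIF3J* at -0.89; none of these passed the threshold at 100 d. *EIF1AY* (1094 reads in HVC and 3038 in whole brain) was at -0.88 and *EIF3B* (131 and 379) at -0.94. *EEF2* (120 and 243), *EIF3F* (155 and 315) and *EIF3L* (26 and 42) were at -0.43, -0.43 and -0.10, and with the sums of the listed counts as sizes 3 of the 7 factors lay above 0.

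The tissue comparisons at both ages use different libraries of both tissues, although the 45 d pair gives the spread of both. Of the 15 ribosomal proteins fitted at both ages, 14 were on the same side at both, 11 higher and 3 lower in HVC, *RPL30* being the exception. Of the 7 translation factors 5 were on the same side, all lower in HVC, and *EIF3F* and *EIF3L* were not. Members were listed for these differences, so this is a description of the listed genes.

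The tissue comparison at 100 d adds 9 genes that were outside the main fit, as they have no counts for the 45 d HVC pair. *RPL6* (95 reads in HVC, 46 in whole brain) had a read ratio of 3.11 (exact 95% interval 2.17 to 4.53), *RPL15* (19 and 7) of 4.09 and *RPL22* (12 and 4) of 4.52. The stalk base protein *RPLP0* (260 and 220) was at 1.78 and *RPL14* (343 and 292) at 1.77. *RPL9* (529 and 1894) was lower in HVC, at 0.421 (0.381 to 0.464). Among factors, the initiation factor 3 core subunit *EIF3A* (302 and 228) was at 2.0 and *EIF5A2* (174 and 135), a factor that helps ribosomes past slow peptide bonds, at 1.94, but *EIF3M* (397 and 1145) was at 0.522. *EIF3A* and *EIF3M* belong to the same complex and were measured on opposite sides. These intervals hold counting error only, and the pair above shows that libraries of a single group can differ by over 2-fold.

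Among the fitted ribosomal proteins, those lower in HVC had the shorter gene models by median, although the ranges overlap. At 45 d the 5 below 0 span 788 to 4303 bases (median 1631), and the 15 above 0 span 1595 to 93483 bases (median 4141). Across the 20 fitted genes, span and log2 fold change had a Spearman correlation of 0.50 at 45 d, and of 0.73 across 15 genes at 100 d; the points share libraries, and genes are not independent replicates. The shortest of those below 0 are *RPS21* (chromosome 20, taeGut1 positions 10717230 to 10718017), *RPL23A* (chromosome 19, 7184987 to 7186463) and *RPL32* (chromosome 12, 21175432 to 21177062). *RPL9*, lower in HVC at 100 d but not fitted, spans 4840 bases. *RPL4* lies on chromosome 10 (19186767 to 19197449) and *RPS2* on chromosome 14 (9475826 to 9479495). Members carry 25 chromosome labels in all, with unplaced sequence (Un) counted as a label. The median span was 3375 bases for ribosomal proteins and 8873 for translation factors, beside 11010 for all listed transcripts. Other fitted transcripts spanning under 5000 bases had a median log2 fold change of -0.37 at 45 d, beside -0.69 for all. At 100 d it was -0.44, beside -0.42 for all. A gene model of this build can lack exons, and spans include introns.

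Within HVC, most members were lower at 100 d than at 45 d, but none passed the test. Of 33 members with counts, 32 were fitted, and edgeR called 0 of them, as it called 0 of all 2150 fitted transcripts (0%). The paper's own edgeR test did report changed genes between these ages. For genes higher in 45 d HVC at an unadjusted edgeR p under 0.05, its most enriched pathway term was amino acid metabolism. By its account, that term held many genes of ribosomal proteins and of translation initiation and elongation. With 1 residual degree of freedom left here, 0 calls do not show that levels were equal. The median log2 fold change of 100 d over 45 d was -0.63 for 23 ribosomal proteins, of which 19 were below 0, and -0.57 for 9 translation factors, of which 8 were below 0, beside 0.02 for all fitted transcripts. An unadjusted edgeR p under 0.05 was reached by 9 of the 32 members and by 443 of the 2150 transcripts. DESeq2, limma with voom and a test at 1 common dispersion also called 0 members, and 2, 0 and 67 transcripts in all. Markers of other cell types were measured in the same fit: both markers of the ventricular zone and radial glia were below 0 (*VIM* -0.78, *FABP7* -0.57), as were the 1 fitted endothelium marker (-1.0), *MBP* (-0.12) and the choroid plexus marker (-0.28), and 2 of 4 HVC markers and 2 of 4 cerebellum markers. Of the 2 fitted markers of dividing cells, 1 was above 0 and 1 below. The 1 microglia marker with counts, not fitted, had more scaled reads at 100 d. None of the fitted markers was called, and the part of these cell types in the values of the members was not tested.

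All 18 members listed in the table of this comparison had fewer scaled reads at 100 d, beside 46.4% of all 1800 transcripts listed there and 51.1% of the other listed transcripts spanning under 5000 bases. Of the 15 members with counts from other tables only, 10 were lower and 5 higher at 100 d. The direction of single genes depended on the library of the pair: against R92L1 alone 23 of 24 ribosomal proteins were lower at 100 d (median log2 ratio -0.81), and against R92L2 alone 16 of 24 (-0.45). Translation factors went the opposite way, with 6 of 9 lower against R92L1 (-0.26) and 9 of 9 against R92L2 (-0.73). Against either library, 16 ribosomal proteins and 6 factors were lower.

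Several members had nearly the same level in the pair and a lower one at 100 d. *EEF1B2* had 906, 920 and 556 scaled reads, a log2 fold change of -0.72 (SE 0.25, edgeR adjusted p = 1). *RPS7* had 242, 224 and 136, *RPL27* 316, 270 and 163, and *RPL10A* 104, 86.1 and 48.0. *RPL27A*, with 27, 34 and 9 reads, had the widest value, -1.75 (SE 0.58). In each of these genes both 45 d libraries lay above the 100 d library.

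Among the members with counts in HVC, the most reads were those of *EEF1A1*, which encodes the factor that delivers aminoacyl-tRNA to the ribosome, with 6043 and 10026 reads in the pair and 5658 in adult HVC, a log2 fold change of -0.49 (SE 0.27). The pair itself differed by 0.46 on the log2 scale. Its neuronal paralog *EEF1A2*, which in mammals takes over in mature neurons and muscle, had counts only in whole brain, 1046 at 45 d and 562 at 100 d, a read ratio of 0.645 (exact 95% interval 0.582 to 0.716). The coding sequences of both are much alike, so reads may be shared between them, and no library has counts of both.

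Members with a log2 fold change near 0 in HVC were *RPL23A* (0.00), *RPL4* (0.03), *RPS3* (-0.05), *EIF3J* (0.06) and *RPL32* (-0.11). These genes were listed for the tissue comparisons and have counts here through them. *RPL4* was -0.47 against R92L1 and 0.78 against R92L2, so its level at 100 d lay between the pair. The same held for the others named here. Against R92L1 and R92L2 in turn, *RPL23A* was at -0.32 and 0.40 and *RPS3* at -0.32 and 0.26. In the same order *EIF3J* was at 0.58 and -0.31 and *RPL32* at -0.44 and 0.31.

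**Figure D4:**
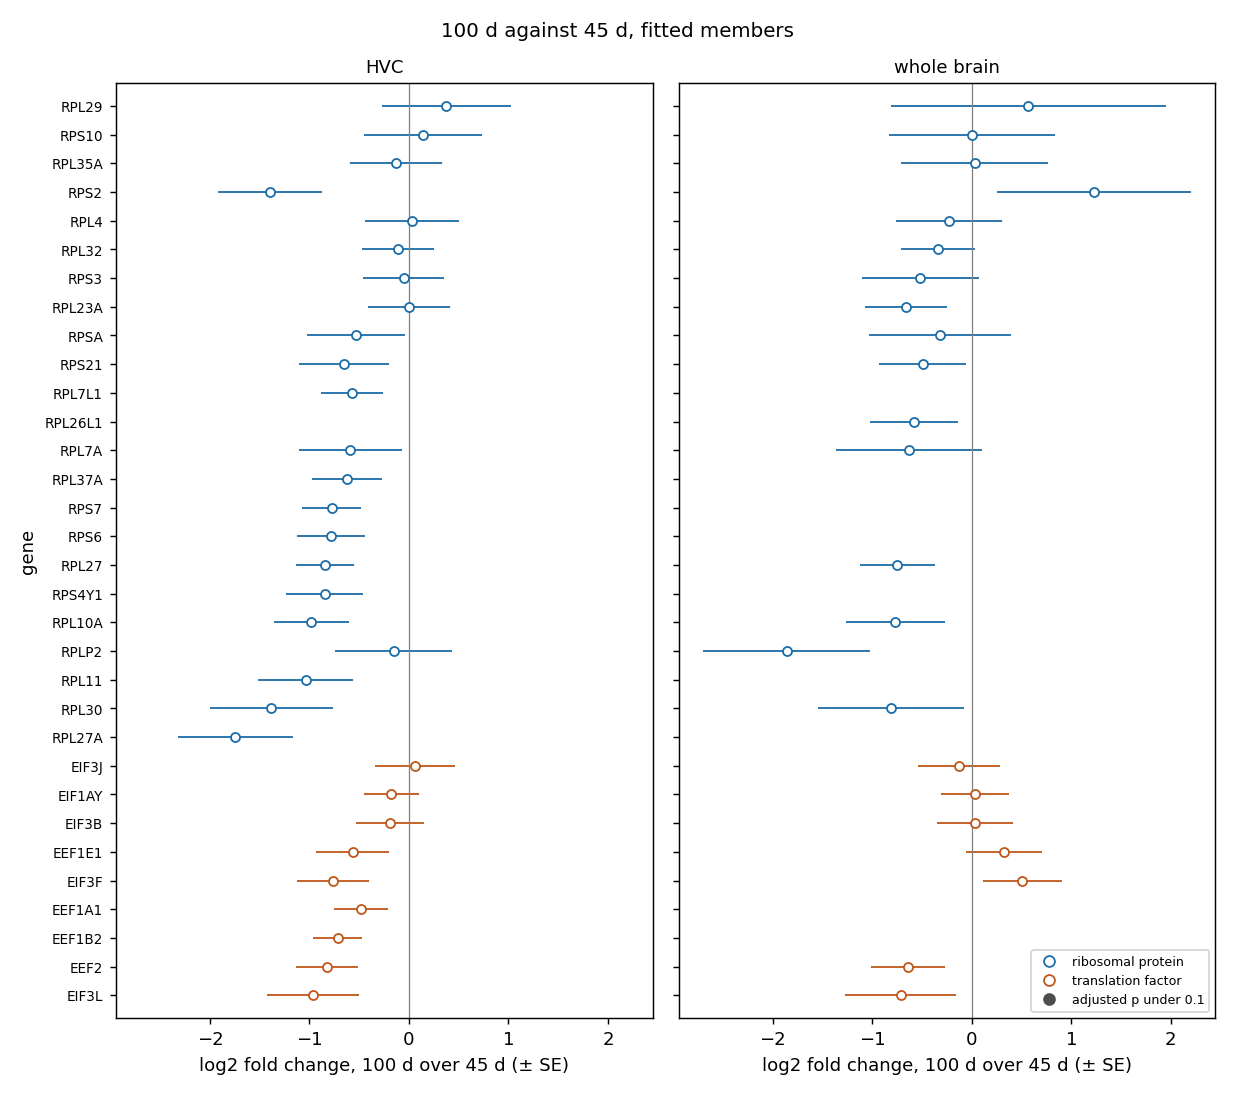
Log2 fold change of 100 d over 45 d (x axis, bars ± SE) of each fitted member (y axis) in HVC (31 members drawn) and whole brain (23 members); blue is ribosomal protein and orange translation factor, and open points mark that no member had an edgeR adjusted p under 0.1. In HVC 26 of those drawn lie below 0, and in whole brain 12 of 16 ribosomal proteins and 3 of 7 translation factors do.

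In whole brain, with 1 library per age, 23 of 34 members with counts were fitted and edgeR called 0, beside 2 of all 1318 transcripts (0.152%). An unadjusted p under 0.05 was reached by 1 of the 23 members and by 90 of the 1318 transcripts. The member was *RPLP2*, with 31 reads at 45 d and 7 at 100 d (log2 fold change -1.86, SE 0.84), and DESeq2, limma with voom and the common dispersion test called 0 members. Of the 16 fitted ribosomal proteins 12 were below 0 (median -0.51), and of the 7 translation factors 3 were (median 0.03), beside a median of -0.03 for all fitted transcripts. With the sums of listed counts as sizes 5 of the 7 factors were below 0.

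By reads alone, 13 of the 15 ribosomal proteins listed for this comparison were lower at 100 d, beside 55.4% of all 1800 listed transcripts. *RPLP0* (462 reads at 45 d and 220 at 100 d, ratio 0.572), *RPL6* (93 and 46, 0.594), *RPL27* (319 and 158, 0.595), *RPS27A*, which is made as a fusion with ubiquitin (74 and 39, 0.633), *RPL36* (25 and 12, 0.577), *RPL15* (19 and 7, 0.443) and *RPL22* (14 and 4, 0.343) were among them. The other 2 were *RPL9* (1584 and 1894 reads, ratio 1.44, exact 95% interval 1.34 to 1.54) and *RPL12* (22 and 30, 1.64, 0.914 to 2.98). Of the 9 ribosomal proteins with counts that were not listed for this comparison, 5 were lower at 100 d and 4 higher. The 6 listed factors were divided. *EEF1A2*, *EEF2* (456 and 243, 0.640) and *EIF3L* (83 and 42, 0.608) were lower at 100 d. *EIF4A2*, the helicase paralog that prevails in mammalian brain (6670 and 8106, 1.46), *EIF2B1*, a subunit of the exchange factor for initiation factor 2 (207 and 247, 1.43), and *EIF3F* (266 and 315, 1.42) were higher.

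*RPL27*, *RPL10A*, *RPL30*, *EEF2* and *EIF3L* were listed for the ages in both tissues and had lower values at 100 d in both. In HVC their log2 fold changes were -0.84, -0.98, -1.38, -0.83 and -0.97, and in whole brain -0.75, -0.77, -0.81, -0.64 and -0.72. These pairs of values come from different libraries. *EIF3F* was listed in both as well, at -0.76 in HVC and 0.51 in whole brain.

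Whether the age difference depended on tissue was tested for the 22 members with counts in all 5 libraries. The edgeR interaction test called 0 of them and 0 of all 1177 fitted transcripts (0%), and an unadjusted p under 0.05 was reached by 2 of the 22 members and by 91 of the 1177 transcripts. The 2 were *EIF3F*, with a difference between tissues of -1.27 on the log2 scale (SE 0.51, edgeR adjusted p = 1), and *RPS2*, with -2.63 (SE 1.18, edgeR adjusted p = 1), for which 4 and 8 reads in whole brain give the age value. DESeq2, limma with voom and the common dispersion test also called 0 members here.

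The remaining members were measured in HVC only, for the ages. *RPL11* (47 and 47 reads in the pair, 23 at 100 d), *RPL37A* (126, 115 and 79), *RPL7L1* (304, 268 and 195), *RPS4Y1* (146, 112 and 73) and *RPS6* (202, 368 and 163) had log2 fold changes between -1.04 and -0.57. Against R92L1 alone *RPS4Y1* was at -1.14 and *RPS6* at -0.45, and against R92L2 alone they were at -0.49 and -1.05. *RPS4Y1* and *EIF1AY* carry the names of human Y-linked genes, but their models lie on chromosomes 4A and 1 here. *RPL7L1* and *RPL26L1* are paralogs of the core proteins *RPL7* and *RPL26*, and ribosomal protein genes have many processed copies in vertebrate genomes, so reads of near-identical copies may have been divided. The strand used in counting is not given in the sources used here, and *EEF2* overlaps *DAPK3* and *ATCAY* in these models, while *EIF3A* and *EIF4A2* hold small nucleolar RNA genes.

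Neighbouring gene groups were measured in the same fits. Of the 22 listed mitochondrial ribosomal proteins, 14 were fitted for HVC against whole brain at 45 d, with 3 called higher and 1 lower and a median of 1.12, and 6 at 100 d, with 1 called each way and a median of 0.12. In HVC, 12 of 13 were lower at 100 d with a median of -0.93, and all 11 listed for that comparison were lower; none was called. The RPS6K kinases, left out by the rule, had 1 of 3 called lower in HVC at 45 d and 1 of 3 at 100 d. Aminoacyl-tRNA synthetases had 1 called each way of 2 fitted at 45 d, and genes of ribosome biogenesis 1 each way of 4, and at 100 d neither list had a call, of 1 and 3 fitted. In the age comparisons none of these lists had a call. Of the other translation factors and regulators, *NACA*, *TPT1* and *TSC2* were listed, and none could be fitted.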

How the data were processed

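Per the labels and the study's methods, RNA of HVC and whole brain was sequenced after NuGEN amplification and size selection of the libraries. The authors trimmed the reads, mapped them with ELAND2 to taeGut1 and deposited raw read counts per Ensembl transcript, with the log2 fold changes and the p-values of their edgeR tests. These columns were not used as results: the deposited log2 fold changes served to solve the relative library sizes, and the deposited p-values to find how many transcripts the authors tested. Each comparison was fitted over all listed transcripts with counts in its libraries and in the 45 d HVC pair, with edgeR 4.0.16 (glmQLFit, glmQLFTest, 1 mean per group, filterByExpr) in R 4.3.3. Standard errors come from the log2 fold change and the F statistic, and Benjamini-Hochberg values count every transcript the authors tested. Only 1 residual degree of freedom is left, and at 100 d the trend over transcripts set the spread. Calls were made at an adjusted p under 0.1. Ratios of reads have exact binomial 95% intervals.

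The alternatives were TMM, relative log expression, sums of listed counts and sizes from counts alone, no filter, DESeq2 1.42.0, limma 3.58.1 with voom, 1 common dispersion, an additive model of tissue and age, each 45 d HVC library left out, and an adjusted p under 0.05. The fit was also run on simulated counts with 1 common dispersion for all transcripts, and no result given here rests on that run. Members and lists were chosen with earlier results of these data known. The text gives the counts of members that were called, have counts in all libraries, have 0 to 3 reads in a library or share a paralog among the members, and the rest by number and range. Values of a few genes are not reported here, though the counts of members include them. No set test was made, since a low p put transcripts in the tables. Symbols were matched to RefSeq bTaeGut7.mat by name only, and positions are those of the deposited tables. Figures were drawn in Python 3.11.15 with matplotlib 3.10.9.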

Additional observations from a re-analysis of the deposited data

How the results depend on the processing

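No member called in the main fits changed side, but the median of the translation factors did: for HVC against whole brain at 45 d it went from -0.24 to 0.06 (TMM), 0.31 (relative log expression) and 0.10 (listed sums), and between ages in whole brain from 0.03 to -0.08 (listed sums). The 8 members called at 45 d became 2 under TMM, 14 under relative log expression, 1 with listed sums, 2 with sizes from counts alone, 2 with DESeq2, 2 with voom, 5 in the additive model and 3 at an adjusted p under 0.05. The 4 at 100 d became 0 under TMM, 2 with sizes from counts alone, 0 with DESeq2 and 2 with voom. Leaving out a 45 d HVC library was tested in the additive model only, over 22 members. With both libraries that model called 5 (45 d) and 6 (100 d) members. Whether members were called depended on which library was left out. Without a filter there were 11 and 4, and with 1 common dispersion 12 and 5. All transcripts called ranged as widely: 683 at 45 d became 232, 703, 172, 266, 122 and 336 under the scalings and tests in the order above, and 338 at 100 d became 75, 171, 203, 156, 35 and 201, and 606 in the additive model. In HVC between ages, 0 became 6 under TMM, 10 without a filter, 2 with DESeq2 and 67 with 1 common dispersion. The members called in the age comparisons and in their difference stayed at 0 under all alternatives run. Other scalings moved the median of all transcripts for HVC against whole brain by up to 0.55 at 45 d and 0.53 at 100 d (log2), and changed the side of up to 3 members there; beyond that shift the cause was not tested. For the difference of ages between tissues, listed sums changed the side of 10 of 22. No paired analysis was possible because only HVC at 45 d has more than 1 library. Depth limits *RPLP1*, *RPL29*, *RPL22* and *RPL15* most, with 1 to 19 reads in each library.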
